A study of Mus musculus with 6 samples.

Results

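The S100 proteins are small calcium-binding proteins that carry a pair of EF-hand motifs and mostly act as dimers. Calcium binding opens a surface through which they engage targets inside the cell, and several are also released and read by the receptors RAGE and TLR4. In blood vessels they are known for roles in cell migration, plasminogen activation on the cell surface, and the recruitment of leukocytes. The 10 genes described here are *S100a1*, *S100a3*, *S100a4*, *S100a6*, *S100a8*, *S100a9*, *S100a10*, *S100a11*, *S100a13* and *S100b*. Their probes were found by name in the array's own annotation. The genes are 10 of 22229 named genes on the array, represented by 12 probes (1 spot each) of 55681 probes and 59305 non-control spots. *S100a1* and *S100a4* had 2 probes each and every other gene had 1.

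The arrays compared 1G11-mock with 1G11-SOD3 cells, 3 arrays per line. 1G11 is a mouse microvascular endothelial cell line (strain C57BL/6NCrLBR by the labels), and 1G11-SOD3 cells overexpress SOD3, the extracellular superoxide dismutase. Cells of both lines were exposed for 6 h to medium conditioned by N202.1A cells, a mouse mammary cancer line, so that no array shows either line without that medium. The promoter that drives SOD3, and whether each line is a clone or a pool, are not given in the sources used here. The series design calls the 3 arrays of a line biological replicates.

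Values are log2 intensities after background correction and quantile normalization. A probe was called different at a change above 2-fold with an adjusted p from limma, over all 55681 probes, of less than 0.05. Between 34.2% and 43.8% of the spots of an array were well above background by the scanner software, and none was saturated. All arrays of 1 line lay in 1 row of the slide, so slide row and cell line cannot be told apart. With 3 arrays against 3, an exact permutation test of a single value cannot give a 2-sided p below 0.1.

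Of the S100 genes, *S100b* fell 6.33-fold in 1G11-SOD3 cells (95% interval 3.83 to 10.5), and none of the others was called. Its probe was the only 1 of the 12 S100 probes called, against 2.93% of all probes on the array, and no S100 probe was called higher. The cytoskeletal and annexin-binding members *S100a4*, *S100a6*, *S100a10* and *S100a11* were well above background on all arrays of both lines and none was called. The inflammatory pair *S100a8* and *S100a9* was not well above background on any array.

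The probes are 60 bases long, and 3 of them are shown because they carry the contrast in the data: *S100a1* and *S100a8* for the calcium-binding loop of their proteins, read in 1 case and not well above background in the other, and *S100b* for the gene that fell. Capitals mark the 36 bases that encode a canonical EF-hand loop, found by translating each probe in its 3 frames; *S100b* is given as its first 30 bases, with none in capitals.
S100a1, first probe: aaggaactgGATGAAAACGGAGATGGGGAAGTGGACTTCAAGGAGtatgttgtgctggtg
S100a8: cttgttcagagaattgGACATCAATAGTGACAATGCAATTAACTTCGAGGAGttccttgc
S100b, first 30 bases: gaagctggacttgaggctttctaacttgca

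Only these 2 of the 12 probes held the loop. In 5 probes, that of *S100b* among them, no reading frame was free of stop codons. The longest exact run that an S100 probe shared with the probe of any other gene on the array was between 12 and 19 bases. The longest was shared by *S100a11* with its pseudogene *S100a11-ps*. The array annotation places the *S100b* probe on chromosome 10, bases 75723783 to 75723842, and all the other probes on chromosome 3. Its build is not named, and none of the 12 positions (0) lies within the gene as GRCm38.p6 has it.

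*Sod3*, the overexpressed gene, was read first as a check of the labels. Its log2 intensity was 13.61, 12.66 and 9.86 in the 1G11-mock arrays and 16.37, 16.30 and 16.26 in the 1G11-SOD3 arrays. All 1G11-SOD3 arrays lay above all 1G11-mock arrays, in the direction of the labels, with a log2 fold change of 4.27 (SE 0.703, adjusted p = 0.00786). *Sod3* has its spot in the array's middle, which read dim on the 1G11-mock arrays, and its difference was 2.75 (adjusted p = 0.0242) after the adjustment for place described next. Without 1G11-SOD3 replicate 3 it was 4.29 and just missed the threshold (adjusted p = 0.0518).

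Place on the array entered into these values, so the S100 probes are given by where they lie. For 116 probes with copies inside and outside the middle, copies in the middle read lower than the others by a median log2 difference of -0.83, -1.17 and -2.72 on the 1G11-mock arrays. On the 1G11-SOD3 arrays the same difference was 0.20, -0.19 and 0.13. Of the S100 probes only that of *S100a9* lies there, and the other 11 sit where a smooth surface fitted to bright spots gave differences between -0.59 and -0.12 (1G11-SOD3 minus 1G11-mock). The map of the S100 spots shows them toward the edges of the array, on ground that read slightly brighter on the 1G11-mock arrays. The fold changes of the S100 probes above background are therefore also shown after that surface was taken off. For other genes the adjusted value is given only where stated, and the remaining values are not adjusted for place.

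**Figure D1:**
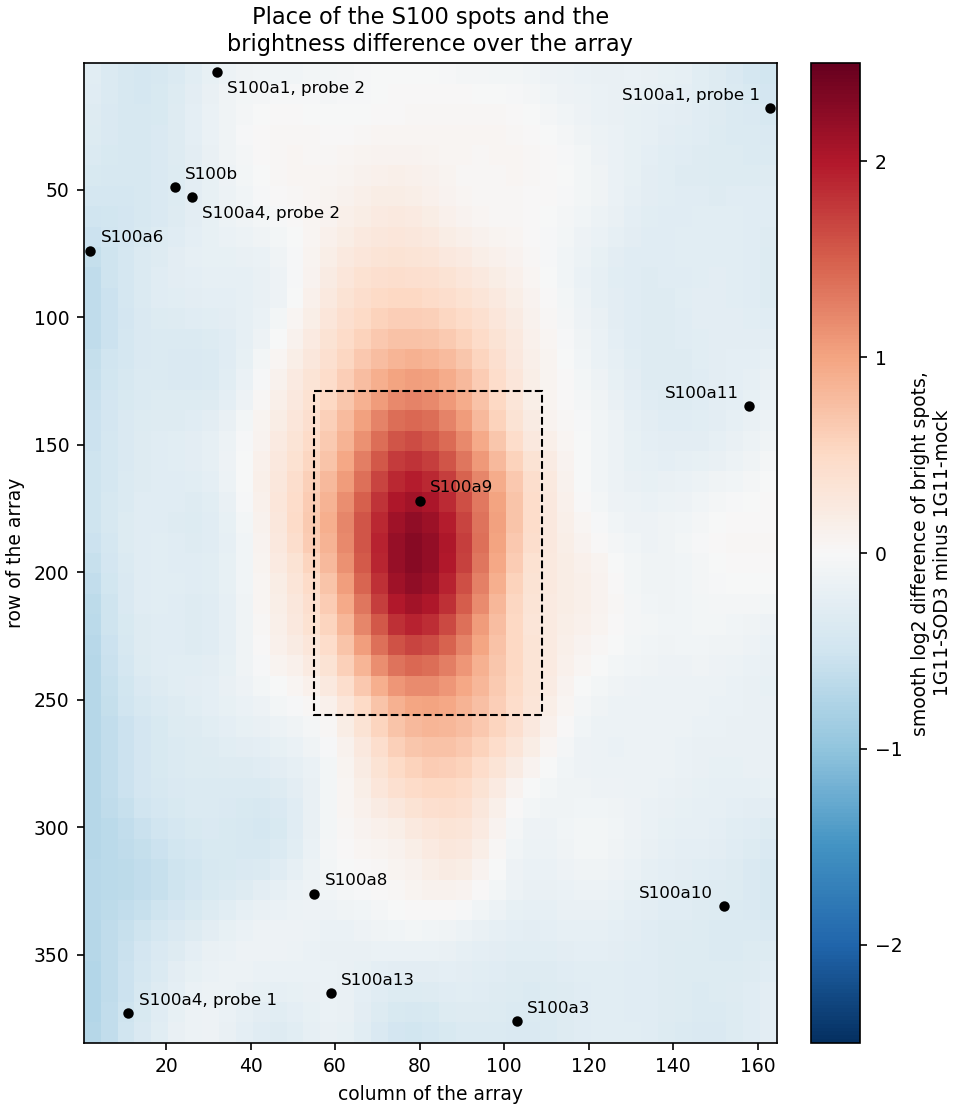
Place of the 12 S100 spots (dots) on the array, by row and column of the array; color gives the smooth log2 difference of bright spots, 1G11-SOD3 minus 1G11-mock, and the dashed frame the middle of the array. *S100a9* is the 1 S100 spot inside the frame, at a surface difference of 2.09, while the other spots lie between -0.59 and -0.12.

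*S100b* encodes a protein abundant in glia and melanocytes that binds p53 and, once released, RAGE. Its log2 intensity was 13.82, 13.28 and 13.22 in the 1G11-mock arrays and 11.42, 10.85 and 10.07 in the 1G11-SOD3 arrays. All 1G11-SOD3 arrays lay well below all 1G11-mock arrays, and all 6 were well above background. The means were 13.44 ± 0.33 and 10.78 ± 0.67 (SD, n = 3 each). The log2 fold change was -2.66 (SE 0.331, 95% interval -3.39 to -1.94, adjusted p = 0.00175). It was the 1 S100 probe called lower, where 1.06% of all probes were. In RNA of whole cultures, fewer cells that express a gene and less RNA per cell cannot be told apart. After the adjustment for place the log2 fold change was -2.36 (adjusted p = 0.00336). It was called under all 21 alternatives run, with log2 fold changes from -2.98 to -2.20 and adjusted p from 8.57e-06 to 0.0208.

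**Figure D2:**
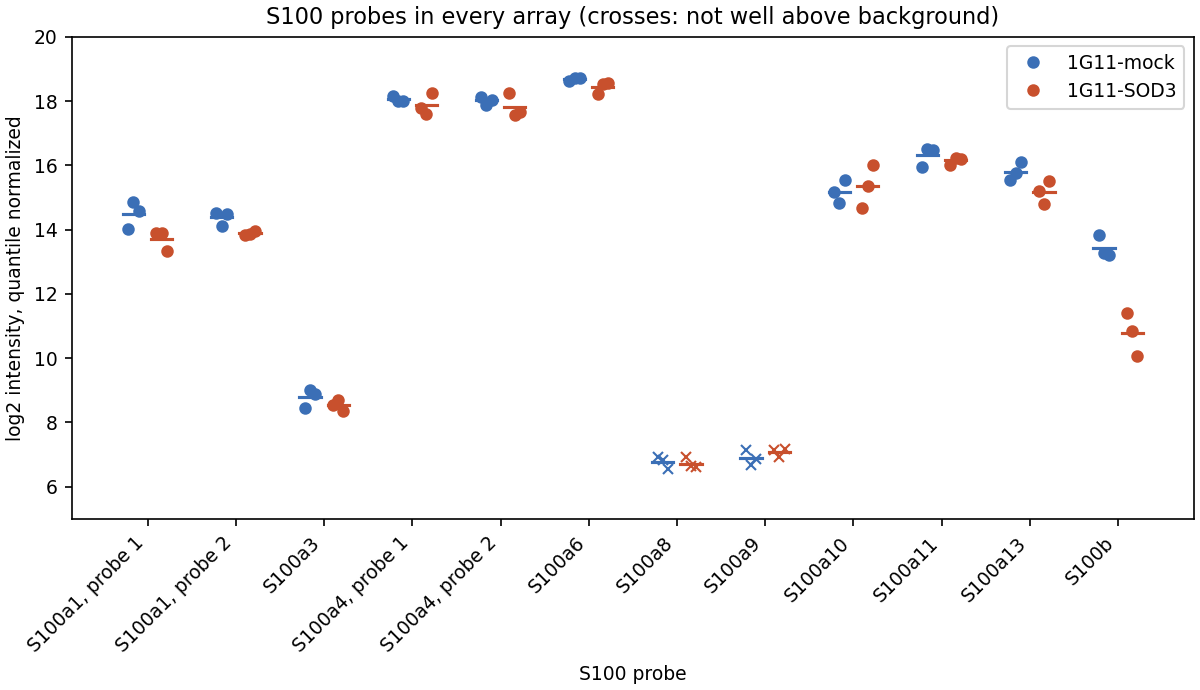
Log2 intensity (vertical axis) of each S100 probe in the 3 1G11-mock arrays (blue) and the 3 1G11-SOD3 arrays (orange), with the mean of each line as a bar; crosses are probes not well above background. *S100b* stands apart, with 13.22 to 13.82 on the 1G11-mock arrays and 10.07 to 11.42 on the 1G11-SOD3 arrays; heights of different probes are not comparable.

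The expression pattern of *S100b* over the 6 arrays was most like that of *Hoatz*, *Gstm2* and *Lama5*. Pearson's r with *S100b* was 0.998 for *Hoatz*, 0.997 for *Gstm2* and 0.995 for *Lama5*, the highest of 13069 named probes outside the middle and well above background on at least 3 arrays. These values describe 6 arrays that fall into 2 groups of 3, so that any probe lower in 1G11-SOD3 cells correlates with *S100b*. *Lama5*, the laminin α5 chain of the endothelial basement membrane, read 13.79, 13.63 and 13.34 in 1G11-mock and 12.10, 11.87 and 11.29 in 1G11-SOD3 cells (log2 fold change -1.83, SE 0.265, adjusted p = 0.00392). *Hoatz* was called as well (-1.55, adjusted p = 0.00597). *Gstm2*, a glutathione S-transferase, was not, at -0.66 (adjusted p = 0.157) and at -0.09 after the adjustment for place.

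*S100a1* and *S100a13* are neighbors on chromosome 3. *S100a1* encodes a regulator of calcium pumps and ryanodine receptors in muscle, and *S100a13* a protein that takes part in the unconventional release of FGF1 and interleukin-1α. The first *S100a1* probe read 14.02, 14.85 and 14.57 in 1G11-mock and 13.89, 13.88 and 13.33 in 1G11-SOD3 cells. The second read 14.51, 14.12 and 14.50 against 13.84, 13.86 and 13.95. *S100a13* read 15.54, 15.75 and 16.10 against 15.20, 14.81 and 15.50. For each of these probes the lines did not overlap, the 1G11-SOD3 arrays being the lower, but none was called. The log2 fold changes were -0.78 (95% interval -1.39 to -0.18, adjusted p = 0.199) and -0.49 (-0.98 to -0.01, adjusted p = 0.342) for *S100a1* and -0.63 (-1.20 to -0.07, adjusted p = 0.284) for *S100a13*.

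The adjustment for place brought these differences nearer to 0. They became -0.40 (adjusted p = 0.373) and -0.36 (adjusted p = 0.406) for the *S100a1* probes, whose lines then overlapped. For *S100a13* the value was -0.54 (adjusted p = 0.174) and the lines stayed apart. Both *S100a1* probes and *S100a13* kept a negative sign under every alternative, at -1.01 to -0.25 across these probes and with none called.

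*S100a4* and *S100a6* encode the metastasis-associated protein that binds nonmuscle myosin and the protein also known as calcyclin, a partner of Cacybp. The first *S100a4* probe read 18.15, 18.01 and 17.99 in 1G11-mock and 17.77, 17.61 and 18.26 in 1G11-SOD3 cells, and its log2 fold change was -0.17 (95% interval -0.69 to 0.36, adjusted p = 0.811). The second read 18.13, 17.89 and 18.03 against 18.24, 17.58 and 17.65, a log2 fold change of -0.19 (-0.73 to 0.35, adjusted p = 0.783). Both *S100a4* probes overlapped between the lines, and the array that read highest among the 1G11-SOD3 arrays was replicate 3 for the first probe and replicate 1 for the second.

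*S100a6* read 18.61, 18.73 and 18.73 in 1G11-mock and 18.21, 18.52 and 18.56 in 1G11-SOD3 cells. Its lines did not overlap, but they differed by a log2 fold change of -0.25 only (95% interval -0.73 to 0.22, adjusted p = 0.659), and the sign turned after the adjustment for place (0.15, adjusted p = 0.722).

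*S100a10* (p11) encodes the partner of annexin A2 in a complex that binds plasminogen, and is the member of the family that has lost calcium binding. It read 15.16, 14.83 and 15.54 in 1G11-mock and 14.68, 15.37 and 16 in 1G11-SOD3 cells, so that its log2 fold change was 0.17 (95% interval -0.55 to 0.90, adjusted p = 0.866). The 1G11-SOD3 arrays held both its lowest and its highest value. After the adjustment for place the log2 fold change of *S100a10* was 0.46 (adjusted p = 0.345). *S100a11*, a partner of annexin A1, read 15.95, 16.51 and 16.49 against 16.01, 16.23 and 16.21, a log2 fold change of -0.17 (-0.69 to 0.36, adjusted p = 0.809), and its lines overlapped. *S100a3*, known from the hair cuticle, read 8.44, 9.02 and 8.88 against 8.55, 8.71 and 8.36, a log2 fold change of -0.24 (-0.77 to 0.28, adjusted p = 0.71).

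*S100a8* and *S100a9* form calprotectin, which neutrophils and monocytes make in abundance and which acts on TLR4. *S100a8* read 6.94, 6.83 and 6.54 in 1G11-mock and 6.91, 6.64 and 6.61 in 1G11-SOD3 cells. *S100a9*, in the middle of the array, read 7.15, 6.67 and 6.86 against 7.14, 6.94 and 7.16. Neither was well above background on any array, so no fold change is given. With the adjustment for place *S100a9* passed the threshold, but this signal was well above background on 0 arrays and is not read as a change.

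Over the family, 10 probes of 8 genes were well above background on all 6 arrays and the other 2 on none. In 5 of the 12 probes (*S100b*, both of *S100a1*, *S100a13* and *S100a6*) every 1G11-SOD3 array read below every 1G11-mock array, compared with 10.3% of all probes, and 0 showed the reverse, as 10.4% of all probes did. After the adjustment for place, 2 of the 10 probes above background had every 1G11-SOD3 array lower (*S100b* and *S100a13*) and 1 (*S100a10*) had every one higher. The probe of *S100a9*, not well above background, then had every 1G11-SOD3 array lower too. Of all probes, dim ones included, 10.4% then had every 1G11-SOD3 array lower and 14.6% every one higher. The log2 fold change was negative in 9 of the 10 probes above background, but in 4 after the adjustment. Their median moved from -0.24 to 0.01, beside -0.06 and 0.04 for all 19807 probes well above background on all arrays of a line. An unadjusted p under 0.05 was reached by 4 of the 12 probes and by 14.4% of all probes. For 7 of the 10 probes the 95% interval lay within 2-fold in either direction, and over the 9 uncalled ones the limits ran from -1.39 to 0.90.

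**Figure D3:**
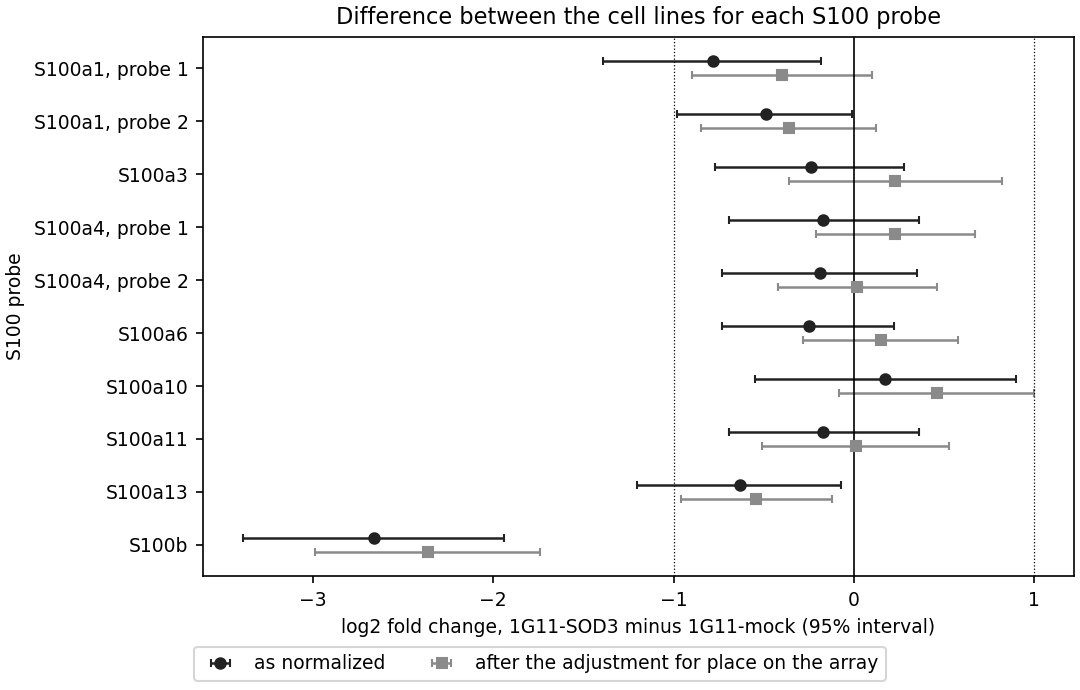
Log2 fold change (1G11-SOD3 minus 1G11-mock, 3 arrays each) of the 10 S100 probes above background, with 95% intervals, as normalized (black circles) and after the adjustment for place (gray squares); dotted lines mark 2-fold. *S100b* lies beyond 2-fold in both, at -2.66 and -2.36, and all 10 probes shifted upward with the adjustment.

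Of 7 other S100 genes on the array, *S100a16* was called and 6 were not, where 4.67% of named genes were called by their brightest probe. The *S100a16* probe in the middle of the array read 14.15, 14.46 and 12.66 in 1G11-mock and 16, 15.42 and 15.96 in 1G11-SOD3 cells, which gave a log2 fold change of 2.03 (SE 0.406, adjusted p = 0.0215). The second *S100a16* probe, outside the middle, read 14.17, 14.83 and 14.69 against 14.17, 14.75 and 14.79, a log2 fold change of 0.01 (95% interval -0.58 to 0.59, adjusted p = 0.994). The probes of this gene disagreed: after the adjustment for place the first was at 0.79 and no longer called (adjusted p = 0.128), and it also lost the call without 1G11-SOD3 replicate 1 (adjusted p = 0.0797) or replicate 3 (adjusted p = 0.104), or without background correction (adjusted p = 0.0564). *S100a14* was at 0.28 (adjusted p = 0.635), *S100a5* was well above background on 1 array, and *S100a7a*, *S100a7l2*, *S100g* and *S100z* on none. The pseudogene *S100a11-ps* was at -1.12 (adjusted p = 0.242) and was called with the replicate block (adjusted p = 0.0418).

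The genes through which S100 proteins act were then read by list, 1 probe per gene. Of all named genes, 4.67% were called by their brightest probe. Among 8 annexin partners none was called (0 of 8), with a median log2 fold change of -0.25 beside -0.03 for all named genes. *Anxa2*, the partner of S100A10, was at 0.04 (adjusted p = 0.971), with 1 spot of 1 array left out as an outlier. *Anxa5* was at -0.54 (adjusted p = 0.32) and *Ahnak*, a giant scaffold protein, at -0.64 (adjusted p = 0.164). After the adjustment for place *Anxa2*, *Anxa5* and *Ahnak* were at 0.25, -0.24 and -0.32. The medians of the lists were not adjusted for place. Among 14 intracellular targets 0 were called and the median was -0.03. *Myh9*, the myosin bound by S100A4, was at 0.07 (adjusted p = 0.923) and *Sugt1* at -0.04 (adjusted p = 0.97). *Mdm2*, the ubiquitin ligase of p53, read 14.74, 14.86 and 15.44 in 1G11-mock and 12.67, 13.84 and 14.28 in 1G11-SOD3 cells, at -1.42 (adjusted p = 0.0751); it was called with the adjustment for place (-1.18, adjusted p = 0.0255) and with the replicate number as a block (adjusted p = 0.0114).

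Of 6 receptors and co-receptors, 1 was called. *Tlr4*, the receptor of S100A8/A9 and of endotoxin, read 11.65, 11.53 and 12.12 in 1G11-mock and 9.76, 9.62 and 10.90 in 1G11-SOD3 cells. It fell by 1.67 on the log2 scale (SE 0.336, adjusted p = 0.022), with no overlap between the lines. The call was lost with 1G11-mock replicates 2 and 3 left out in turn (adjusted p = 0.0658 and 0.0793), and likewise with 1G11-SOD3 replicates 1 and 2 (adjusted p = 0.0929 and 0.0813). *Ager*, which encodes RAGE, was well above background on no array. *Bsg* was at 0.94 (adjusted p = 0.255) and *Cd14* at -0.39 (adjusted p = 0.616). Among 6 genes of plasminogen activation 0 were called, with *Eno1* at 0.05 (adjusted p = 0.941), *Plgrkt* at 0.08 (adjusted p = 0.921) and *Plaur*, the urokinase receptor, at -0.52 (adjusted p = 0.502).

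Of 19 other EF-hand proteins, 1 rose and 1 fell. *Cib3*, a calcium- and integrin-binding protein, read 14.21, 13.71 and 13.31 in 1G11-mock and 9.91, 9.78 and 8.71 in 1G11-SOD3 cells, for which the log2 fold change was -4.28 (SE 0.344, adjusted p = 0.000163). With the replicate block *Cib2* (1.32, adjusted p = 0.0506) was called as well (adjusted p = 0.0236). *Rcn3*, a reticulocalbin of the endoplasmic reticulum, rose by 1.26 (SE 0.236, adjusted p = 0.0153). Its call was lost with 1G11-mock replicate 2 left out (adjusted p = 0.0729), and likewise with 1G11-SOD3 replicates 1 and 3 (adjusted p = 0.0769 and 0.0565). The calmodulin gene *Calm2* (0.09, adjusted p = 0.906) and the calpain subunit *Capns1* (-0.38, adjusted p = 0.493) were not called, and the median of the list was 0.03.

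**Figure D4:**
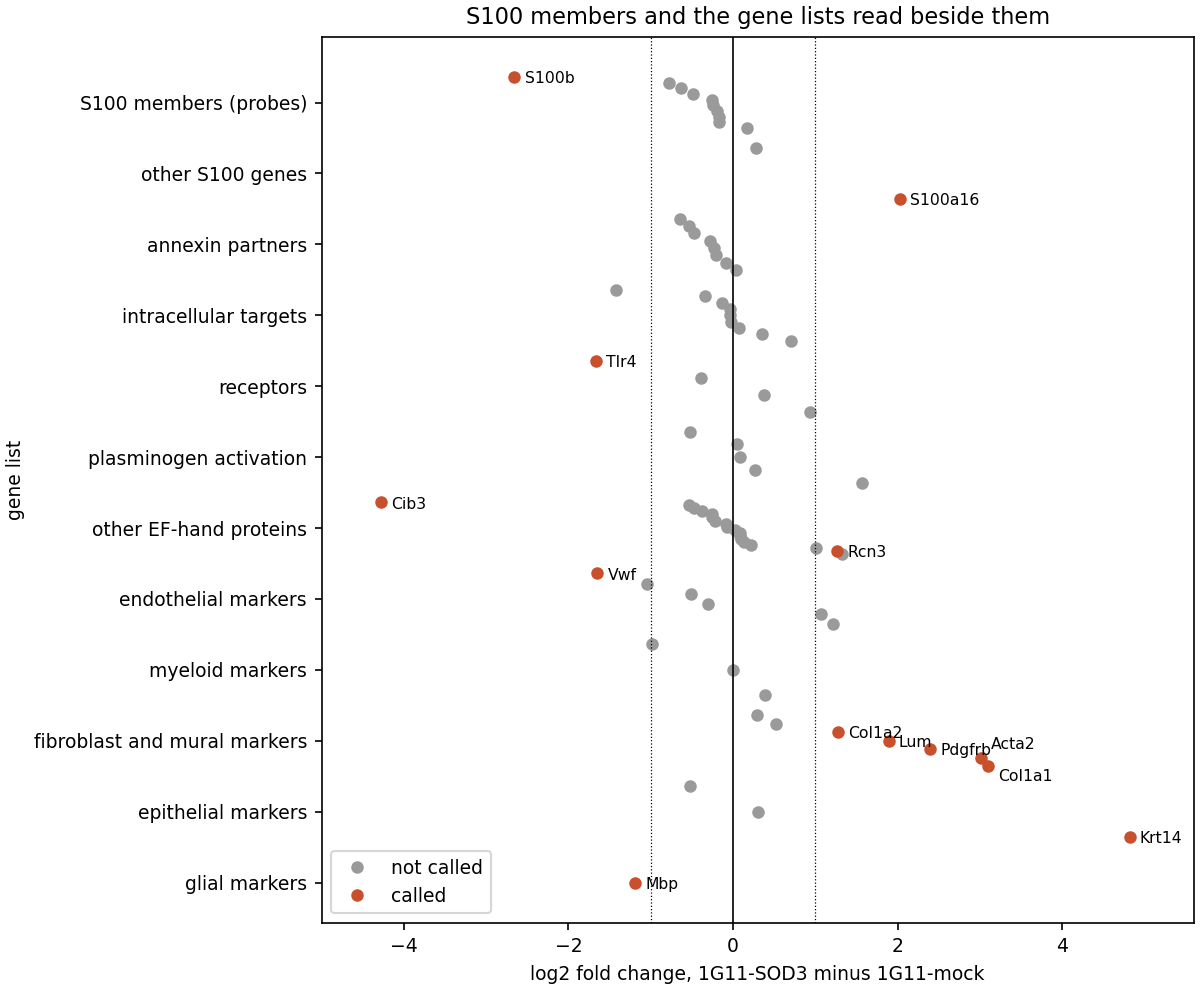
Log2 fold change (1G11-SOD3 minus 1G11-mock) of the S100 probes and of 1 probe per gene of each list, for probes well above background on all arrays of at least 1 line; orange points were called and are named, and dotted lines mark 2-fold. The S100 members and the annexin partners lie mostly within 2-fold, and *S100b* is the 1 called member.

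Markers of cell types in which S100 genes are prominent were read beside these results, and their part in the results was not tested. In these lists too, 1 probe stood for each gene, and 4.67% of all named genes were called. Of 11 myeloid markers found on the array (of 12), 0 were called and 7, among them *Ptprc*, *Lyz2* and *Cd68*, were well above background on no array, as *S100a8* and *S100a9* were not. The brightest were *Itgam* (-0.00467, adjusted p = 0.996), *Elane* (-0.98, adjusted p = 0.0342, under 2-fold) and *Csf1r* (0.39, adjusted p = 0.598). After the adjustment for place *Itgam* was at -0.76 (adjusted p = 0.111) and *Csf1r* at -0.30 (adjusted p = 0.458). The summed linear intensity of the myeloid list ran from 19800 to 26200 on the 1G11-mock arrays and from 20300 to 25500 on the 1G11-SOD3 arrays. Most of it came from *Itgam*, at a mean log2 intensity of 14.2 in 1G11-mock and 14.19 in 1G11-SOD3 cells. *Elane* was next, at 11.39 and 10.41. Of 6 glial markers, among the cells that make S100B, *Gfap* was well above background on no array. *Mbp* fell by 1.19 on the log2 scale (adjusted p = 0.0205), a call lost with 1G11-mock replicates 2 and 3 (adjusted p = 0.0831 and 0.0535) or 1G11-SOD3 replicates 1 and 3 (adjusted p = 0.0998 and 0.0705) left out in turn. *Sox10* was at -0.32 (adjusted p = 0.614; 0.28 after the adjustment for place) and *Aqp4* at -0.36 (adjusted p = 0.642). The summed glial intensity lay between 2460 and 2780 on the 1G11-mock arrays and between 1450 and 1820 on the 1G11-SOD3 arrays, without overlap, as for *S100b*.

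Of 14 endothelial markers, 6 were well above background on all arrays of at least 1 line, and *Cdh5* (VE-cadherin), *Tek*, *Tie1*, *Emcn*, *Erg* and *Robo4* were on no array. *Vwf* fell by 1.65 (adjusted p = 0.00342), while *Eng* (-1.05, adjusted p = 0.0835), *Mcam* (-0.31, adjusted p = 0.6) and *Kdr* (-0.51, adjusted p = 0.295) were not called. *Mcam*, in the middle of the array, was at -0.71 after the adjustment for place (adjusted p = 0.122). With the replicate block *Flt1* (1.07, adjusted p = 0.219) and *Esam* (1.22, adjusted p = 0.188), both in the middle of the array, were called (adjusted p = 0.0237 and 0.0464). After the adjustment for place *Flt1* was at 0.26 and *Esam* at -0.31, and neither was called. The summed endothelial intensity lay between 30400 and 41900 on the 1G11-mock arrays and between 23700 and 27500 on the 1G11-SOD3 arrays. Of 8 fibroblast and mural markers, for which *S100a4* is also used, 5 rose: *Col1a1* by 3.1 (adjusted p = 0.00152; 2.48 after the adjustment for place), *Acta2* by 3.01 (adjusted p = 0.000385) and *Pdgfrb* by 2.39 (adjusted p = 0.00036), with *Lum* at least 3.31-fold (adjusted p = 0.0306) and *Col1a2* at least 2.18-fold higher (adjusted p = 0.0226), both not well above background in 1G11-mock cells. The *Lum* call was lost after the adjustment for place (adjusted p = 0.0538), without background correction (adjusted p = 0.104), and with 1G11-mock replicates 2 and 3 or 1G11-SOD3 replicate 3 left out in turn (adjusted p = 0.0968, 0.112 and 0.0648), and with cyclic loess (adjusted p = 0.053). That of *Col1a2* was lost with 75th percentile scaling (adjusted p = 0.101), without background correction (0.80, under 2-fold), and with 1G11-mock replicates 2 and 3 (adjusted p = 0.0765 and 0.069) and 1G11-SOD3 replicates 1 and 2 (adjusted p = 0.104 and 0.0838) left out in turn. *Dcn* read 13.51, 13.59 and 17.05 in 1G11-SOD3 cells, replicate 3 far above the others, and 14.04 to 14.78 in 1G11-mock cells. The summed intensity of this list, *Dcn* included, lay between 21700 and 35900 on the 1G11-mock arrays and between 42200 and 175000 on the 1G11-SOD3 arrays. *Dcn* itself was not called (0.29, adjusted p = 0.905). *Acta2*, with 3 of its 10 spots in the middle of the array, was at 2.61 after the adjustment for place. The summed intensities of the marker lists were not adjusted for place. Of 8 epithelial markers only *Krt14*, in the middle of the array, was called (4.82, adjusted p = 7.23e-05; 2.72 after the adjustment for place), and *Krt19* (-0.52, adjusted p = 0.48) and *Cdh1* (0.30, adjusted p = 0.59) were not. The summed epithelial intensity lay between 67800 and 112000 on the 1G11-mock arrays and between 56600 and 90500 on the 1G11-SOD3 arrays. Most of it came from *Krt19*, at a mean log2 intensity of 16.48 in 1G11-mock and 15.96 in 1G11-SOD3 cells.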

How the data were processed

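RNA of 1G11-mock and 1G11-SOD3 cells was hybridized to single-color Agilent mouse arrays, 3 per line. The authors deposited Agilent Feature Extraction 10.7.3.1 output for each array, with the mean intensity of each spot and its local background intensity, not normalized. They also deposited a table of log2 values, background corrected and quantile normalized, which served as an alternative.

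Mean intensities were corrected with normexp (offset of 50), taken to log2 and quantile normalized without control spots. Spots flagged as outliers were left out and spots of 1 probe averaged. The lines were compared with limma 3.58.1 in R 4.3.3 (empirical Bayes, Benjamini-Hochberg over all probes). The procedure was tested on simulated data. A "well above background" probe is one the scanner software marks so. A bound ("at least") sets the bright mean against the lowest signal well above background, or the probe's own signal if higher. The adjustment for place took from each array a smooth surface over row and column (mgcv 1.9.3) fitted to bright spots. With it, the SD of the line difference among copies of a probe fell from 0.504 to 0.171.

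Replicate numbers came from the sample titles and matched the slide column. Samples of the same number deviated together (r of 0.20, 0.14 and 0.14), and other pairs gave r from -0.19 to 0.05. The deviations were taken from the mean of each line, so the r values of the pairs depend on each other. Replicate number and slide column cannot be told apart, so these values do not settle whether the samples are paired. The block was therefore run only as an alternative.

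The members and the 11 lists were chosen with earlier results of these data known. Genes named are all members, other S100 genes and *Sod3*; in each further list the called genes (up to 5) and the 3 brightest; and the 3 genes most like *S100b*. Alternatives were other background corrections and normalizations, the processed signal, filters, a variance trend, the block, the deposited table, place on the array, and each array left out. *Ly6g* was not matched, and 2 list genes are not reported here by name. *Ager*, *S100a11-ps*, *Gfap* and further list genes were named after their values were seen. Python 3.11.15 drew the figures and summed up the tables, with pandas 2.3.3 and matplotlib 3.10.9. Signal over background and the number of arrays limit the precision.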

Additional observations from a re-analysis of the deposited data

How the results depend on the processing

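*S100b* was called under all 15 other settings and with each of the 6 arrays left out. The count of S100 probes called was 1, and 2 with the processed signal scaled to its 75th percentile and with the adjustment for place. The second was *S100a9*, well above background on 0 arrays. *Sod3* ran from 3.17 to 5.05 with arrays left out and missed the threshold in 1 case (4.29 without 1G11-SOD3 replicate 3). The genes called in the pathway lists, counted together with the other S100 genes, were 4, *S100a16* among them, and 7 with 75th percentile scaling. With arrays left out they were 1 to 4, the fewest without 1G11-SOD3 replicate 1, and 2 without 1G11-mock replicate 2.

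Signs of uncalled S100 probes well above background on all arrays turned as follows. Dimmer S100 probes, those of *S100a5*, *S100a8*, *S100g* and *S100z* among them, turned sign with the adjustment for place as well and are not listed. With the adjustment for place, *S100a3* was at 0.23, *S100a4* at 0.23 and 0.02, *S100a6* at 0.15 and *S100a11* at 0.01. Of the uncalled list genes outside the S100 family, *Esam* (-0.31), *Csf1r* (-0.30), *Sox10* (0.28) and *Plaur* (0.02) turned sign with it too. So did *Sugt1* (0.30), *Calm2* (-0.01), *Ptprc* (-0.07) and *Lyz2* (0.09). With the processed signal, dim probes kept or left out, the *S100a4* probes were at 0.02 and 0.19, *S100a6* at 0.07 and *S100a11* at 0.23; *S100a11* was at 0.03 with 75th percentile scaling. *S100a10* ran from -0.15 to 0.51 with arrays left out, and the second *S100a16* probe from -0.19 to 0.21, and at -0.03 with median pixels or the deposited table. The processed signal and the 75th percentile scaling moved the median of all probes to -0.52 and -0.33 from -0.03, so that a member's values there are relative to that shift. The cause was not tested.

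With the replicate block, 2252 probes were called in place of 1629, and the count of S100 probes stayed at 1. It added *Mdm2*, *Cib2*, *Flt1* and *Esam* to the genes called in the lists and changed no other call there. The share higher among the probes called was 63.8%, and 40.1% of 1157 with the adjustment for place, 35.5% of 842 with the middle left out and 10.8% of 11118 with the processed signal. Other counts beyond 1.5 times were 1056 without background correction, 2598 with 75th percentile scaling, and 787, 775, 1041 and 823 without 1G11-mock replicate 2 and 1G11-SOD3 replicates 1, 2 and 3. Genes near background, *S100a8* and *S100a9* among them, could not be compared.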
